A study of Mus musculus with 4 samples.

Results

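Macrophage and leukocyte genes were examined as a group of 34 genes, named by symbol as markers of these cells in a list drawn up with earlier results of these data known. The group spans the surface molecules, Fc receptor and adaptor chains, complement C1q subunits, lysosomal and phagocyte proteins, actin regulators and transcription factors by which macrophages and other white blood cells are recognised. Each of the 34 had 1 probe set that names it alone, out of 18820 genes that could be named, and 0 had a further probe set.

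The cells came from metanephric kidneys of mouse embryos, removed near day 14 of gestation and then cultured as whole organs for some 10 days. The mice, B6.129P2-Lgr5tm1(cre/ERT2)Cle/J, carry EGFP and CreERT2 at the Lgr5 locus, and kidneys that fluoresced were digested with TrypLE and DNase. Flow cytometry collected cells with high GFP and cells without GFP, so both fractions come from kidneys with the reporter allele, and no selection for or against blood cells is described in the sources used here. Total RNA was hybridised to Affymetrix arrays, with 2 arrays of GFP-high cells (titled kidneys A and B) and 2 of GFP-negative cells (titled kidneys B and D). They are called high A, high B, negative B and negative D from here on. The labels do not say whether a letter is a separate animal or litter, so p-values reflect how far these 4 arrays scatter, which may be technical scatter only.

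Macrophages settle in the embryonic kidney before birth, first from the yolk sac and later from the fetal liver, and they clear dying cells and cell debris. Survival of these cells depends on the receptor encoded by Csf1r and its ligands Csf1 and Il34, and their gene programme depends on the transcription factor PU.1, which Spi1 encodes. A sort on an epithelial reporter is meant to leave white blood cells without reporter in the negative fraction. How far it did so was not tested, and the comparison asks which white blood cell transcripts are seen in each fraction.

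As a check of the sort, Lgr5 read 10.43 and 10.34 (deposited log2 values) in GFP-high cells and 6.39 and 6.31 in GFP-negative cells. The medians of all probe sets lay between 5.07 and 5.24 on the 4 arrays. As a mark of background, 979 olfactory receptor genes, which kidney cells are not expected to use, had medians of 3.22 to 3.47 and 95th percentiles of 4.10 to 4.48. Their median difference was 0.18 log2 units, GFP-high minus GFP-negative, so dim probe sets tended to read slightly higher on the GFP-high arrays. Probe sets differ in their own background, so a value above this mark is not proof of a transcript and one below it is not proof of absence. Precision is limited by having 2 arrays per group.

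Of the 34 genes, 6 were lower in GFP-high cells, 0 were higher and 28 did not pass (limma, Benjamini-Hochberg adjusted p below 0.05 over all 18820 genes). Over all genes 11.2% were lower, 8.08% higher and 19.2% either way. The 17.6% of members that passed were all lower, so the matching share of all genes is 11.2%. Whether these shares differ beyond scatter was not tested. Dim genes seldom passed, which limits a comparison with all genes. Of the 5270 genes above the olfactory mark on 0 arrays, 0.63% were lower and 1.23% higher, and 11 of the 34 members were among these genes. Without adjustment 9 members had p below 0.05 in the lower direction and 0 in the higher, against 2878 and 2693 of all 18820 genes. The 6 were Lyve1, Irf8, Lcp1, Mrc1, Laptm5 and Cd68. The median difference of the 34 was -0.12 log2 units, against 0.05 over all genes, and -0.02 with each array centred on its median, where all genes stood at 0.15. In bulk samples, fewer cells of a type and less RNA per cell cannot be told apart. Among the members, 14 had both GFP-high arrays below both GFP-negative arrays and 4 had both above, against 24.0% and 33.2% of all genes.

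**Figure D1:**
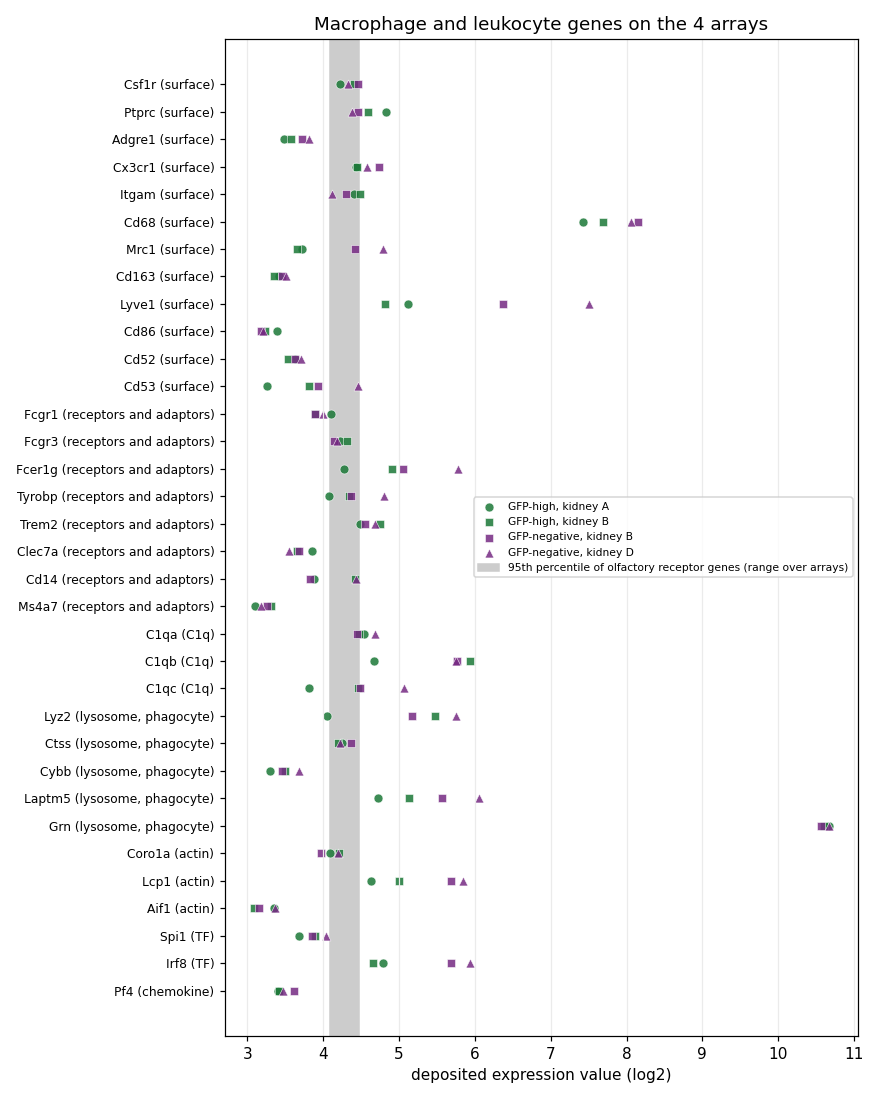
Deposited log2 values (x axis) of the 34 genes (rows, with their role) on the 4 arrays. Green points are GFP-high and purple points GFP-negative arrays, the marker gives the kidney letter, and the grey band spans the 95th percentiles of olfactory receptor genes, 4.10 to 4.48. On at least 1 array 24 of the 34 genes are not above that array's own 95th percentile, while Grn and Cd68 lie far to its right.

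Most of the list was not above the mark on all arrays. Of the 34 genes, 10 were above the array's own olfactory 95th percentile on all 4 arrays (29.4%, against 61.7% of all genes). Above it on 0 arrays were 11, against 5270 of all 18820 genes, and on 1 to 3 arrays 13, against 1941. The 10 were Ptprc, Cd68, Lyve1, Trem2, C1qa, C1qb, Laptm5, Grn, Lcp1 and Irf8. The 11 included defining macrophage genes, namely Adgre1 (the F4/80 antigen), Spi1, Aif1 (the actin-binding protein Iba1), Cd163 (a haemoglobin scavenger receptor), Fcgr1 (the high-affinity IgG receptor) and Cybb (the catalytic chain of the phagocyte oxidase). The others of the 11 were Cd52, Cd86, Clec7a, Ms4a7 and Pf4. With the 99th percentile in place of the 95th, 3 genes (Cd68, Lyve1 and Grn) remained above the mark on all 4 arrays and 19 were above it on 0. In GFP-negative cells 19 members were above the 95th percentile on both arrays and in GFP-high cells 10, against 12860 and 11718 of all 18820 genes. The mark itself was higher on the GFP-high arrays (4.48 and 4.33) than on the GFP-negative arrays (4.10 and 4.13), which lowers the count in GFP-high cells.

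Among the surface molecules, Lyve1 had the largest difference of the 34 genes. It encodes a hyaluronan receptor found on lymphatic endothelium and on a subset of tissue macrophages. Its log2 values were 5.13 and 4.82 in GFP-high cells and 6.37 and 7.50 in GFP-negative cells, so the groups did not overlap and the GFP-negative arrays were themselves 1.13 apart. The difference of -1.97 (SE 0.33, 3.91-fold lower, limma adjusted p = 0.0056) passed without either GFP-negative array (adjusted p = 0.0105 without negative B and 0.0301 without negative D). It did not pass without high A (0.151) or high B (0.171). Some lymphatic endothelial genes moved with it. Flt4, the receptor for the lymphatic growth factor VEGF-C, read 3.72 and 3.73 against 5.64 and 6.28, and Mmrn1, a lymphatic-enriched secreted protein gene, 3.63 and 3.32 against 4.84 and 5.92. Both were lower (limma adjusted p = 0.00032 and 0.0056), but not without high A (0.0627 and 0.149) or high B (0.0579 and 0.171). Of 6 measured lymphatic markers 3 were lower (Lyve1 among them), 0 higher and 3 did not pass. Of those 3, Prox1, the lymphatic master regulator, stood at 5.11 against 5.62, while Pdpn, which other kidney cells also make, read 8.69 against 8.17 and Reln 5.54 against 5.17. The last 2 had an unadjusted p below 0.05 in the higher direction (limma adjusted p = 0.094 and 0.14). The part of lymphatic cells in the Lyve1 difference was not tested.

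Mrc1, the macrophage mannose receptor CD206, read 3.72 and 3.66 in GFP-high cells, both under the background mark, and 4.42 and 4.79 in GFP-negative cells. The groups did not overlap. The difference was -0.92 (SE 0.15, 1.89-fold lower, limma adjusted p = 0.0056). It passed without negative B (adjusted p = 0.0274), but had 0.0662 without negative D and 0.119 without either GFP-high array. Cd68, a lysosomal glycoprotein gene widely used as a macrophage marker, read 7.43 and 7.70 against 8.16 and 8.06, high on every array. All 16 general lysosomal genes measured were above the background mark on all 4 arrays too, and the part of other cells in the Cd68 level was not tested. Cd68 was 1.46-fold lower (log2 difference -0.55, SE 0.14, limma adjusted p = 0.034). That call was lost with any 1 of the 4 arrays left out, at adjusted p of 0.187 and 0.0811 without high A and high B and 0.241 and 0.168 without negative B and negative D. It was also lost with each array centred on its median (adjusted p = 0.0517).

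The remaining surface genes did not pass. Ptprc, which encodes the pan-leukocyte antigen CD45, read 4.83 and 4.59 in GFP-high cells and 4.47 and 4.39 in GFP-negative cells. It was higher in the GFP-high arrays without overlap but not past the threshold (log2 difference 0.28, limma adjusted p = 0.22). The same lack of overlap was seen in 33.2% of all genes and in 555 of the 979 olfactory receptor genes. Csf1r stood at 4.22 and 4.41 against 4.45 and 4.32, with overlapping groups. The fractalkine receptor gene Cx3cr1 read 4.44 and 4.45 against 4.74 and 4.57, and the integrin gene Itgam (CD11b) 4.41 and 4.49 against 4.30 and 4.11. Adgre1 read 3.49 and 3.57 against 3.72 and 3.82, a difference of -0.24 within the range of background values. The tetraspanin gene Cd53, made throughout the white cell lineages, read 3.26 and 3.82 against 3.93 and 4.45, and its difference of -0.65 (SE 0.23) missed the threshold (adjusted p = 0.11). Cd52, Cd86 and Cd163 had differences between -0.10 and 0.12, with values between 3.19 and 3.71 on every array.

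Of 8 receptor and adaptor genes 0 passed, and 1 had an unadjusted p below 0.05 (limma). That gene was Fcer1g, the shared signalling chain of Fc receptors, with 4.27 and 4.91 in GFP-high and 5.06 and 5.78 in GFP-negative cells (difference -0.83, SE 0.28, adjusted p = 0.091). Tyrobp, the adaptor DAP12 that carries signals for TREM2, read 4.08 and 4.34 against 4.36 and 4.80, and Trem2 itself 4.49 and 4.75 against 4.55 and 4.68. The Trem2 groups overlapped, with a difference of 0.00 (SE 0.14, adjusted p = 0.99). Cd14, the lipopolysaccharide coreceptor, read 3.88 and 4.43 against 3.83 and 4.44, so the arrays of a group lay further apart than the groups. The Fc receptor genes Fcgr1 and Fcgr3 differed by 0.06 and 0.11, the beta-glucan receptor gene Clec7a by 0.14 and Ms4a7 by -0.02.

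The 3 chains of C1q, the recognition unit of the classical complement pathway, are made mainly by macrophages, and their spread between arrays was unequal. C1qa stayed between 4.45 and 4.68 on all 4 arrays. C1qb read 4.67 and 5.94 in GFP-high cells and 5.76 and 5.75 in GFP-negative cells, so high B was the highest of the 4 and high A the lowest by over 1 log2 unit. Its difference of -0.46 (SE 0.36, limma adjusted p = 0.47) became -1.09 with adjusted p = 0.035 without high B, and 0.18 with 0.449 without high A. C1qc read 3.81 and 4.47 against 4.49 and 5.06 (difference -0.64, SE 0.26, adjusted p = 0.15). None of the 3 passed with group as the only term over all 4 arrays, and C1qc had an unadjusted p of 0.042.

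Among the lysosomal and phagocyte genes, Laptm5, a lysosomal membrane protein gene of white blood cells, read 4.72 and 5.13 in GFP-high cells and 5.57 and 6.05 in GFP-negative cells without overlap. It was 1.85-fold lower (log2 difference -0.88, SE 0.21, limma adjusted p = 0.023). The call was lost whichever array was dropped (adjusted p = 0.258 and 0.117 without high A and high B, 0.0736 and 0.224 without negative B and negative D) and with quantile normalization (0.0615). Lyz2, the lysozyme of macrophages and granulocytes, had a wide spread, at 4.05 and 5.48 against 5.18 and 5.75 (difference -0.70, SE 0.42, adjusted p = 0.34). Without high A its difference was 0.01. Ctss, a cathepsin of antigen-presenting cells, read between 4.19 and 4.37, and Cybb between 3.29 and 3.68, on all arrays. Grn, which encodes the lysosomal growth factor progranulin and is made by many cell types, read 10.67 and 10.61 against 10.57 and 10.67. It was therefore high and nearly level in both fractions (difference 0.02, SE 0.12).

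Lcp1, the actin-bundling protein L-plastin of white blood cells, read 4.63 and 5.0 in GFP-high and 5.69 and 5.84 in GFP-negative cells without overlap. It was 1.93-fold lower (log2 difference -0.95, SE 0.16, limma adjusted p = 0.0054). It passed without high B (adjusted p = 0.041) and did not without high A (0.0828), negative B (0.0795) or negative D (0.105). The other actin regulators did not pass. Coro1a, the leukocyte coronin, read 4.09 and 4.21 against 3.97 and 4.19, and Aif1 3.35 and 3.09 against 3.15 and 3.36.

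The transcription factor gene Irf8, needed for monocyte, macrophage and dendritic cell development, had the smallest adjusted p of the list. It read 4.79 and 4.66 in GFP-high cells and 5.68 and 5.94 in GFP-negative cells, 2.12-fold lower (log2 difference -1.09, SE 0.14, limma adjusted p = 0.0016). It passed without either GFP-negative array (adjusted p = 0.0254 without negative B and 0.0414 without negative D) and narrowly missed without high A (0.06) or high B (0.0681). Spi1 did not pass, at 3.68 and 3.90 against 3.86 and 4.04 (difference -0.16, SE 0.14, adjusted p = 0.52), below the background mark throughout. Pf4, a platelet chemokine that some macrophages also make, read 3.41 and 3.42 against 3.62 and 3.47.

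**Figure D2:**
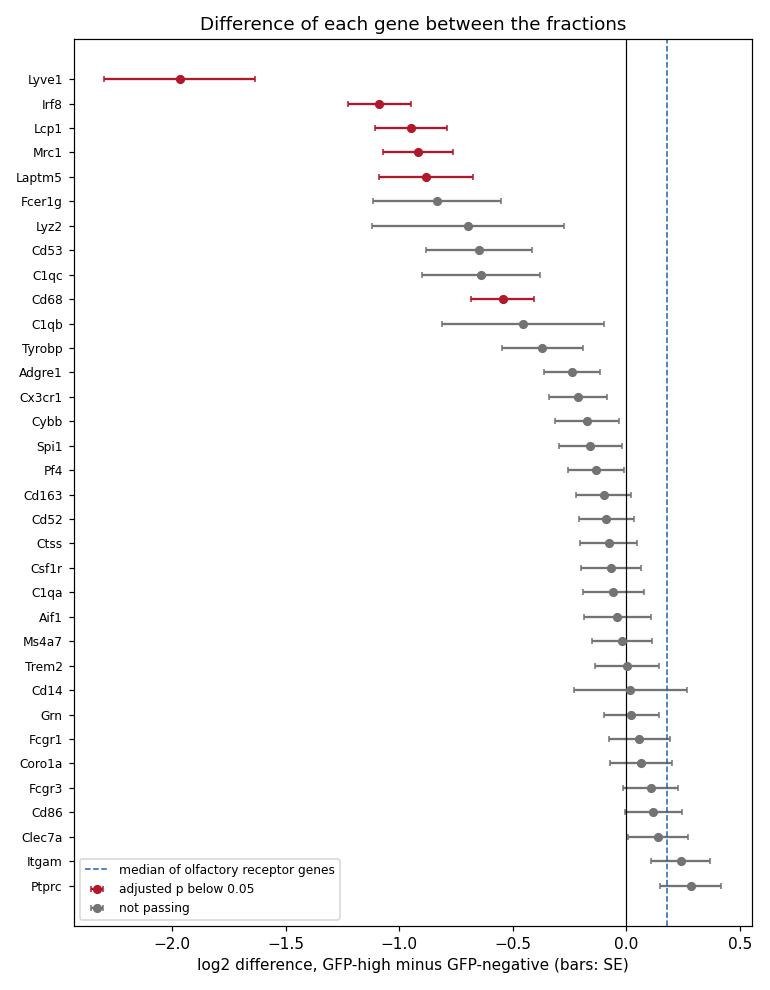
Log2 difference of each of the 34 genes, GFP-high minus GFP-negative (x axis, bars are the moderated SE, 2 arrays per group). Red points had limma adjusted p below 0.05, and the dashed line is the median of olfactory receptor genes at 0.18; the 6 red points lie between -1.97 and -0.55.

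Promoter sequence was looked at because 5 of the 6 genes that were lower have a window in the RefSeq table (GRCm38.p6, 250 bases before to 50 after a start), and PU.1 binds the PU box. The PU box letters searched were GAGGAA on both strands, and the longer GAGGAAGT, which contains it. The motif was chosen after several had been counted. No window was counted for 9 members. Csf1r and Cd14 were among them because windows on their chromosome were left out for members, while the 32851 windows kept it. Member shares and shares of all windows were therefore not counted under the same rule. Of 32 windows of 25 members, 20 (62.5%) held GAGGAA, in 18 of the 25 genes, against 28.3% of all 32851 windows. The longer form was in 4 member windows (12.5%) and 3.20% of all. Some windows overlap, so that the same GAGGAA match was counted in both windows of Clec7a and in both of Fcgr3. Over all genes the share was counted by window only. A match is a description of the letters and not a site. Among the lower genes Mrc1, Cd68 and Laptm5 held it, and Lcp1 and Irf8 did not in either of their windows. The windows of 4 of these genes are shown to set the 3 with the motif beside 1 without it, with GAGGAA or its reverse complement in capitals, written in the direction of transcription. They lie at chr2:14229164-14229463 (plus strand, Mrc1), chr11:69666121-69666420 (minus, Cd68), chr4:130913066-130913365 (plus, Laptm5) and chr8:120736108-120736407 (plus, the upstream window of Irf8).
Mrc1: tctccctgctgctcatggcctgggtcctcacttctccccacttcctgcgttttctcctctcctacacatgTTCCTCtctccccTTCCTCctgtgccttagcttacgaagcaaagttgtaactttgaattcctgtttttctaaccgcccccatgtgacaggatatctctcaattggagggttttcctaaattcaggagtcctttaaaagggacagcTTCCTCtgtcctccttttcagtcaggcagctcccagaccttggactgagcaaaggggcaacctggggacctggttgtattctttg
Cd68: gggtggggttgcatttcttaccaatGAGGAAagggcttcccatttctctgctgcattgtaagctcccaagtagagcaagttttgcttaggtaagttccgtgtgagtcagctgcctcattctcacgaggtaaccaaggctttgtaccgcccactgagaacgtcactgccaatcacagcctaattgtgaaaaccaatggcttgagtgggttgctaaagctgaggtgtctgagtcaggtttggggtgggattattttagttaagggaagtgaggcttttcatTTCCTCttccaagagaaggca
Laptm5: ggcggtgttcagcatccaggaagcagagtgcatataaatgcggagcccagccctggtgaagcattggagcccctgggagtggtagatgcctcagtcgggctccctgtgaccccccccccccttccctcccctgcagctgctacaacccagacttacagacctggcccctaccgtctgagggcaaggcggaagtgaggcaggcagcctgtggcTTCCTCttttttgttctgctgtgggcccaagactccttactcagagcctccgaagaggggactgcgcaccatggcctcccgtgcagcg
Irf8: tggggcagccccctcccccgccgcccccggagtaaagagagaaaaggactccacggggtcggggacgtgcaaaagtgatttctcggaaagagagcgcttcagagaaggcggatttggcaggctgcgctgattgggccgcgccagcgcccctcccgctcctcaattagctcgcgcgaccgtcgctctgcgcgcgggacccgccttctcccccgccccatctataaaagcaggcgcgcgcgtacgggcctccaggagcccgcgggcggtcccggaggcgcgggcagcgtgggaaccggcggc
The Mrc1 window held 3 matches, all as the reverse complement, Cd68 held 1 on each strand and Laptm5 held 1 as the reverse complement.

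The spread between the 2 arrays of a fraction was wide for several members. In GFP-high cells, 6 of 34 genes were at least 0.5 log2 units higher on high B than on high A (17.6%, against 3.38% of all genes), and 0 were as much lower. These were Lyz2 (1.42), C1qb (1.27), C1qc (0.66), Fcer1g (0.64), Cd53 (0.55) and Cd14 (0.55). In GFP-negative cells 6 of 34 were at least 0.5 higher on negative D than on negative B (17.6%, against 2.61% of all genes), and 0 as much lower. They were Lyve1 (1.13), Fcer1g (0.73), Cd14 (0.61), C1qc (0.57), Lyz2 (0.57) and Cd53 (0.53). The 5 genes Lyz2, C1qc, Fcer1g, Cd53 and Cd14 met both conditions, among 29 genes of all 18820 (0.154%) that did. The size of 0.5 was chosen after the values were seen, and genes are not independent replicates.

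**Figure D3:**
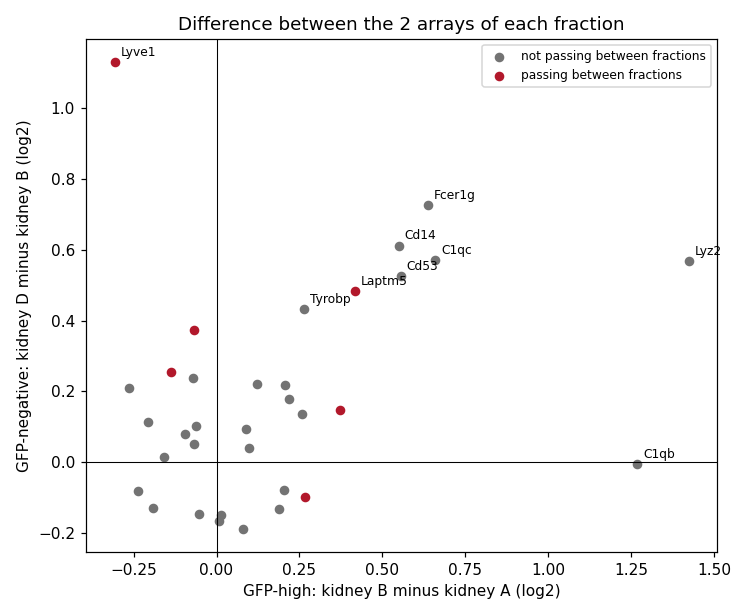
Difference between the 2 GFP-high arrays (kidney B minus kidney A, x axis, log2) and between the 2 GFP-negative arrays (kidney D minus kidney B, y axis, log2) for the 34 genes. Red points passed between the fractions; Fcer1g, Cd14, C1qc, Cd53 and Lyz2 lie at 0.5 or more on both axes, and C1qb and Lyve1 on 1 axis only.

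Kidney B is the only letter present in both fractions, with 1 array each and so no test. Within it, GFP-high minus GFP-negative was -1.56 for Lyve1, -1.03 for Irf8, -0.76 for Mrc1, -0.69 for Lcp1, -0.46 for Cd68 and -0.43 for Laptm5. For each of these 6 genes both GFP-high arrays were below both GFP-negative arrays. A lower value on high B than on negative B was therefore given in advance. The median of the 34 genes within kidney B was -0.02.

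The growth factors and receptors that support macrophages were read beside the list. Of 7 measured genes 2 were lower, 0 higher and 5 did not pass, and 0 had an unadjusted p below 0.05 in the higher direction (limma). Csf1, the main macrophage growth factor, read 4.94 and 5.11 in GFP-high cells and 6.91 and 6.97 in GFP-negative cells, 3.77-fold lower (limma adjusted p = 7.4e-05). It passed without each array in turn (adjusted p at most 0.0217). The other Csf1r ligand, Il34, stood at 5.48 against 5.55 and did not pass. Cx3cl1, the fractalkine ligand of the receptor that Cx3cr1 encodes, was lower at 6.06 against 6.64 (adjusted p = 0.048), a call lost with any 1 array left out (0.118 to 0.318).

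Of 38 further macrophage genes that were measured, 6 were lower, 0 higher and 32 did not pass, with a median difference of -0.03. Above the olfactory mark on 0 arrays were 23 of the 38, against 5270 of all 18820 genes. In the higher direction 1 had an unadjusted p below 0.05 (limma). The 4 largest decreases were in Tmem119, Mrc2, Apbb1ip and Stab1. Tmem119, a microglial marker also made by bone-forming and mesenchymal cells, read 4.67 against 7.91, and Mrc2, a collagen receptor of fibroblasts, 4.79 against 7.80. Apbb1ip, an adaptor for the small GTPase Rap1, read 3.83 against 5.28, and Stab1, a scavenger receptor of macrophages and endothelium, 4.10 against 5.53. The first 3 passed without each array in turn (adjusted p at most 0.0291), and Stab1 did not without high A (0.103) or high B (0.0756).

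Complement genes beyond C1q were read next, with 5 of 8 measured lower, 0 higher and 3 not passing, and 0 with an unadjusted p below 0.05 in the higher direction (limma). Serping1, the inhibitor of C1, was 15.9-fold lower at 6.40 against 10.39, C1s1, a C1 protease gene, 10.0-fold lower at 4.62 against 7.94, and C2 2.51-fold lower at 3.49 against 4.82. These 3 passed without each array in turn (adjusted p at most 0.0367). C1ra, the other C1 protease gene, read 3.73 against 4.46 (adjusted p = 0.010), but did not pass with any 1 array left out (0.0549 to 0.134). Of the 10 stromal markers measured all 10 were lower as well, and stromal cells also make C1 proteases and their inhibitor. Stromal cells' part in these differences was not tested.

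Leukocyte signalling and actin genes went both ways, with 2 of 19 measured higher, 1 lower and 16 not passing. Plcg2 (5.80 against 5.02) and the phosphatase gene Ptpn6 (6.28 against 5.73) were higher and the GTPase gene Rac2 lower (4.02 against 4.75). None of these 3 passed with any 1 array left out, with adjusted p of 0.0627 to 0.12, 0.1 to 0.132 and 0.0591 to 0.26. In the phagocyte oxidase list Rac2 was the only 1 of 5 to pass, while Cyba, the oxidase chain that many cell types make, stood at 10.22 in both fractions. General lysosomal genes were above the background mark on all 4 arrays in 16 of 16 measured cases. Of these 4 were lower, 1 higher and 11 did not pass. Hexa (7.66 against 8.44), Ctsh (6.35 against 7.11) and Ctsz (8.16 against 8.82) were lower and Sort1, a sorting receptor, higher (9.65 against 8.95). Hexa, Sort1 and Ctsz did not pass with any 1 array left out (adjusted p 0.0553 to 0.064, 0.0653 to 0.0894 and 0.063 to 0.143). Ctsh passed without high B (0.0441) and not without the others (0.153 to 0.263).

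**Figure D4:**
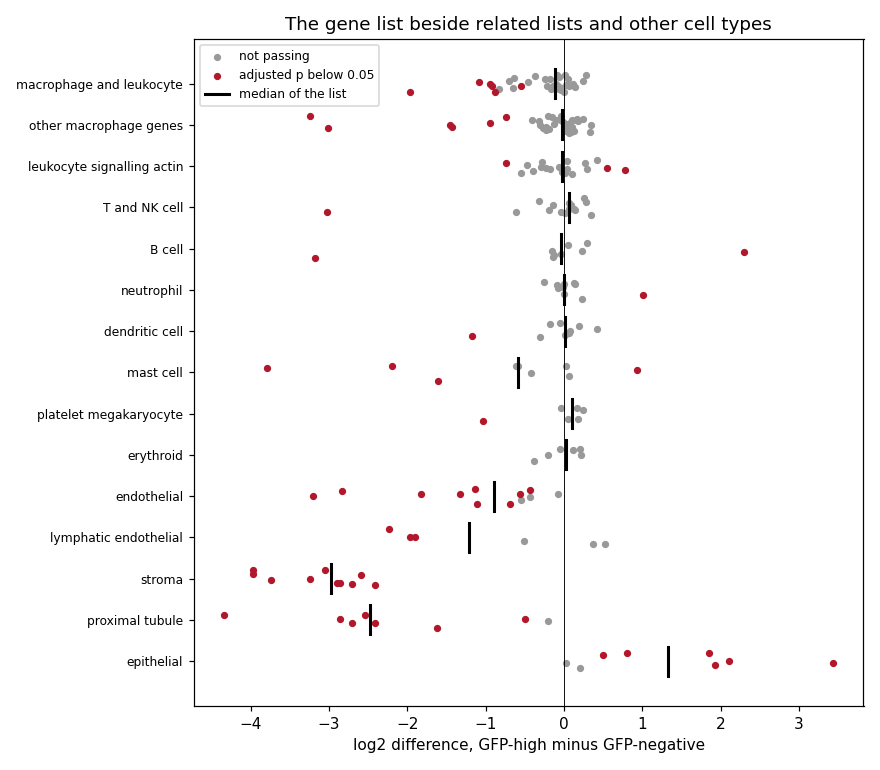
Log2 differences, GFP-high minus GFP-negative (x axis), of the macrophage and leukocyte genes, related lists and markers of other cell types (rows). Each point is 1 gene, red points had limma adjusted p below 0.05, and the black bars are medians, which lay at -0.12 for the 34 genes, -0.90 for endothelium and -2.97 for stroma.

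Many markers of other white blood cells were above the mark on 0 arrays, as were 5270 of all 18820 genes. Of 17 measured T and natural killer cell genes 14 were above the mark on 0 arrays, as were 9 of 11 neutrophil genes, 5 of 9 B cell genes and 6 of 9 dendritic cell genes. Thy1, also a fibroblast antigen, was lower (4.91 against 7.94), as was Ebf1, a transcription factor of B cells and of stroma (4.97 against 8.14), and the B cell adaptor gene Blnk was higher (8.41 against 6.11). These 3 passed without each array in turn (adjusted p at most 0.0279). Of the defining lineage genes, S100a8 was above the mark on 0 arrays and Cd3e, of T cells, on 1. The chains of the B cell receptor complex differed, with Cd79a above the mark on 0 arrays and Cd79b above it on all 4, at 5.91 and 6.64 in GFP-high and 6.31 and 5.67 in GFP-negative cells. Prtn3, a neutrophil protease gene, was higher at 4.83 against 3.82 and Zbtb46, of dendritic cells and endothelium, lower at 5.44 against 6.62. Without high A and high B these had adjusted p of 0.0669 and 0.0591 for Prtn3 and 0.0979 and 0.0545 for Zbtb46, which had 0.0821 without negative B too. Of 6 erythroid genes 0 passed (1 with an unadjusted p below 0.05, lower), and the 2 with the highest means were Alas2 (4.11 against 4.31) and Slc4a1 (4.23 against 4.03). Among 6 platelet and megakaryocyte genes Itgb3, an integrin also of endothelium, was lower at 4.10 against 5.14, with adjusted p of 0.254 and 0.181 without high A and high B and 0.0974 without negative D.

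Markers of the non-blood cell types were read on the same arrays. Of 12 endothelial markers 9 were lower, 0 higher and 3 did not pass, and their linear values summed to 272 and 271 on the GFP-high and 676 and 885 on the GFP-negative arrays. The sums of the 34 genes were 2366 and 2438 against 2572 and 2880, and without Grn and Cd68 562 and 668 against 770 and 985. No probe background was removed from these sums, so their ratios are not compared between lists. Emcn (4.58 against 7.79) and Cdh5 (4.49 against 7.33) passed without each array in turn (adjusted p at most 0.0351). Kdr and Pecam1 did not without high A (0.117 and 0.179) or high B (0.127 and 0.167). Epithelial markers of the kidney were above the background mark on all 4 arrays in 8 of 8 cases and higher in GFP-high cells in 6, and 7 of 8 proximal tubule markers lower. The part of these other cell types in the values of the 34 genes was not tested.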

How the data were processed

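The samples were 4 Affymetrix arrays, 2 of each fraction, grouped by the reporter fraction and number in their descriptions. The values are log2 expression values per probe set as the authors deposited them; background correction and normalization: not given in the sources used here. Array data have no read depth. Columns left unused numbered 0. Of 35556 probe sets 21218 named 1 gene, 1881 several and 12457 none in the platform annotation. The probe set with the highest mean stood for a gene.

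The comparison was fitted by limma 3.58.1 (lmFit, eBayes; R 4.3.3; group as the only term, 2 residual degrees of freedom, prior 5.11, two-sided) over all 18820 genes with no filter. The fit was tested on simulated data. Exact permutation of 2 against 2 arrays cannot go below p = 0.333. SE is moderated, and folds are the difference raised from base 2.

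The members and lists were chosen with earlier results of these data known. Named were the 34 members, Lgr5 and, per other list, up to 4 passing genes by size or, where none passed, the 2 of highest mean; further genes were named after their values were seen. Olfactory receptor genes as a mark were likewise chosen with values known. Alternatives were the array number and the kidney letter as blocks, 3 normalizations, a filter on dim genes, other uses of probe sets, an intensity trend, and leaving out each array. Promoter windows came from RefSeq (GRCm38.p6), and gene coordinates were not used.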

Additional observations from a re-analysis of the deposited data

How the results depend on the processing

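The 6 decreases kept their direction under every alternative that kept the gene, though only the 3 normalizations could have changed it. For these 6 both GFP-high arrays were below both GFP-negative arrays, so leaving out an array could not. The blocks, trend, filter and other uses of probe sets left the differences as they were. Under the normalizations, blocks, trend and other uses of probe sets 5 to 8 members passed. With the array number as a replicate block 8 passed, Cd53, Fcer1g and C1qc being gained (adjusted p = 0.0266, 0.0107 and 0.0287) and Cd68 lost (0.0734), and 2959 of all genes passed in place of 3620. Deviations of arrays with the same number correlated at -0.198 over all genes, and with the crossed pairing by kidney letter 6 members and 4102 genes passed. With 1 array left out, which leaves 1 residual degree of freedom, 0 to 3 members and 1123 to 1749 genes passed. A filter at the median level kept 2 members (Cd68 and Grn), of which 1 passed, with a median difference of -0.26 and 2385 of 9410 genes passing. With the 99th percentile of olfactory receptor genes as the mark, 3 members were above it on all 4 arrays and 19 on 0. Leaving out Lyve1, added after seeing the data, gave a median of -0.10. Of 410 alternative values of single members 28 had another sign, all in members that did not pass, and the cause was not tested.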

Other observations

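Mast cell genes, which are not on the list of 34, were measured on the same arrays. Of 9 measured, 3 were lower in GFP-high cells, 1 higher and 5 did not pass. Ms4a2, the beta chain of the high-affinity IgE receptor, read 2.89 and 3.22 in GFP-high and 4.68 and 4.64 in GFP-negative cells (limma adjusted p = 0.000299), and passed without each array in turn (at most 0.0279). Cpa3, the mast cell carboxypeptidase, read 3.32 and 3.35 against 4.55 and 6.50, so negative D was 1.94 log2 units above negative B. Its adjusted p of 0.026 became 0.296 and 0.265 without high A and high B. The proteases Mcpt4 (3.39 and 4.41 in GFP-negative cells) and Tpsb2 (4.31 and 4.89) were likewise higher on negative D, and did not pass between the fractions (adjusted p = 0.235 and 0.085), except without negative B (0.0487 and 0.045). Hdc, which makes histamine and is also used by kidney cells, read 5.68 against 9.47 and passed without each array in turn (at most 0.0211). Kit, the stem cell factor receptor, was higher in GFP-high cells at 7.71 against 6.78, with adjusted p of 0.0562 and 0.056 without high A and high B. Fcer1a, the alpha chain of the IgE receptor, was above the background mark on 0 arrays.

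The 29 genes that were at least 0.5 log2 units higher on the array numbered 2 in both fractions held the 5 members named above and 24 others of mixed kinds, among them the proximal tubule genes Slc34a1, Slc6a18 and Acsm2, and Gabre, Gas2, Oasl2 and Pcdhb14. Of these 24, 4 known from stomach or pancreas are given here as examples and not as a full list. Clps, the pancreatic lipase cofactor, read 6.40 and 7.86 in GFP-high and 6.54 and 8.16 in GFP-negative cells. Pla2g1b, a pancreatic phospholipase, read 6.43 and 7.71 against 6.31 and 7.90, Pgc, a gastric pepsinogen, 5.92 and 7.28 against 6.02 and 7.50, and Gkn2, a gastrokine, 3.57 and 4.63 against 3.89 and 5.18. None of these 4 differed between the fractions at the threshold (adjusted p 0.60 to 0.98), and they were named after their values were seen. Gpnmb, a glycoprotein of lipid-laden macrophages and other cells, was among the 29 at 4.40 and 5.46 against 5.65 and 6.41.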
